A study of Mus musculus with 8 samples.

Results

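The genes described here are the plasminogen activators Plau (urokinase, uPA) and Plat (tissue plasminogen activator, tPA), the urokinase receptor gene Plaur, and the serpin genes Serpine2, Serpinf1 and Serping1, 6 of the 54532 genes in the deposited count table. They were found in the table by their mouse symbols, and they had been chosen by name with the ASC and sham values of these libraries already known. Their ASC and sham values are therefore a description of the genes, and their adjusted p-values, taken from a fit over all genes, are not independent evidence. RNA came from lens capsules of wild-type (WT) C57BL/6 mice aged 6 to 8 weeks, 7 days after surgery. The 4 ASC libraries came from eyes in which a 26-gauge needle, passed through the cornea, had opened the anterior capsule, an injury used as a model of fibrotic cataract. The 4 sham libraries came from eyes given the corneal cut alone, so a wounded cornea is common to both groups. The labels call the replicates biological. The number of animals behind each library was not given in the sources used here.

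Plasminogen is a circulating zymogen that uPA and tPA cut into plasmin, a serine protease that dissolves fibrin, breaks down matrix proteins and releases or activates growth factors and metalloproteases. uPA works largely at cell surfaces, where its receptor uPAR holds it, while tPA works best on fibrin. Serpins are proteins that trap serine proteases after being cut by them, and protease nexin 1 (Serpine2) and antiplasmin (Serpinf2) are among those that hold this system back. In the lens, a basement membrane capsule encloses the epithelium and fibres, and the epithelial cells under an opened capsule are known to migrate, lay down matrix and contract.

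Library totals ran from 14420494 to 21141582 counts, and 15857 genes had enough counts to be tested. All 10 lens epithelial markers were among them, at a summed 8312 to 11137 CPM (counts scaled to library size) in ASC and 8384 to 10665 CPM in sham. Col4a1, a basement membrane collagen that other cells also make, gave most of that sum, with a mean of 7318 CPM in ASC and 7274 CPM in sham. The lens transcription factor gene Foxe3 had a mean of 335 CPM in ASC and 329 CPM in sham, and Mab21l1 was the 1 gene of the list that was called, lower in ASC (mean 75.3 CPM in ASC and 147 CPM in sham). ASC 1 stood apart on the second principal component of expression, at -53.8, where the other libraries lay between -7.09 and 36.0. Sham 3 lay apart from the other sham libraries on the first, at 9.35, where they lay between -47.2 and -18.3. Of all tested genes, 162 passed an adjusted p of 0.05 by edgeR, with 100 of them higher in ASC and 62 lower, a share of 1.02% called and 0.631% called higher. Of the 6 genes, 5 had enough counts to be tested, Plaur being the exception. Of those 5, 1 was called higher in ASC and 0 lower, and nothing is read from that share because this contrast was known when the genes were chosen. In bulk RNA, fewer cells of a type and less RNA per cell cannot be told apart.

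Of the 6 promoters, 3 were matched in RefSeq's promoter table (build GRCm38.p6, 250 bases before to 50 after the start), and they are shown because they are where a match for AP-1, the dimer of Fos and Jun proteins, could be looked for beside the levels. The motif searched was TGANTCA, which reads the same on both strands, and matches are in capitals. The windows are written 5′ to 3′ on the strand of the gene. They are chr7:24462233-24462532 on the plus strand for Plaur, chr1:79858616-79858915 on the minus strand for Serpine2 and chr11:75422574-75422873 on the minus strand for Serpinf1. The build behind the counts was not given in the sources used here, so these positions belong to the sequences alone.
Plaur: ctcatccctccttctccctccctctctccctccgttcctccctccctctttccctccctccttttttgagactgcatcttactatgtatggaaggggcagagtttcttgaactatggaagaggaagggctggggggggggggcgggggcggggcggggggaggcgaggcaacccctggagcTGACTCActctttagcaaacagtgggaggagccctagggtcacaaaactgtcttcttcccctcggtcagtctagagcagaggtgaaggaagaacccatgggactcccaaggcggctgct
Serpine2: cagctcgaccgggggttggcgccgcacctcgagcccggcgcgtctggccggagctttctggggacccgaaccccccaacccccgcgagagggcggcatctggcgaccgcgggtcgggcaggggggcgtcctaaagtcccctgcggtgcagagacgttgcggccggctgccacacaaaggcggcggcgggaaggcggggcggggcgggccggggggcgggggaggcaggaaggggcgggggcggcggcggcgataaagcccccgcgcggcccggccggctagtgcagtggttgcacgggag
Serpinf1: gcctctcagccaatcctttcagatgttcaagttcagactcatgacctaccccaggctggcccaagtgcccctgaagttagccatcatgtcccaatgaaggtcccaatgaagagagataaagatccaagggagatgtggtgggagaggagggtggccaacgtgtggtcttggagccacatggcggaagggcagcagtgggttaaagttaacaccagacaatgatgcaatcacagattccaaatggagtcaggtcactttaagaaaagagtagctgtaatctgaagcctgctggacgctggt
The Plaur window held 1 match, TGACTCA, which begins 69 bases before the start, and the other two windows held 0. Of all 32851 promoters in the table, 7.81% held at least 1 match. A match is a string of letters and not a shown binding site.

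Plau, the gene for urokinase, was the member called, and its levels were low in both groups. It had 25, 65, 69 and 30 reads in ASC libraries 1 to 4, against 10, 5, 7 and 2 reads in sham libraries 1 to 4. In CPM these were 1.59, 3.53, 3.99 and 2.02 in ASC, against 0.468, 0.234, 0.339 and 0.149 in sham. The lowest ASC library, ASC 1, lay above the highest sham library, sham 1, so the groups did not overlap, as held for 3.39% of all tested genes with ASC on the upper side. The mean was 2.79 ± 1.16 CPM in ASC and 0.297 ± 0.138 CPM in sham (SD, n = 4 each). The log2 fold change, ASC over sham, was 3.16 (SE 0.45, adjusted p = 0.0056 by edgeR), a fold of 8.94 with a 95% confidence interval of 4.54 to 17.6. Without ASC 1 the log2 fold change of Plau was 3.35, and leaving out any other library gave values from 2.94 to 3.45. It was called in each of these 8 fits, with DESeq2 (adjusted p = 1.5e-07) and with limma-voom (adjusted p = 0.0259).

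The spread of Plau within a group can be set beside the error of counting reads. In ASC the coefficient of variation over libraries was 41.5%, where counting error alone at that mean count gives 14.5%. In sham it was 46.4%, where counting error gives 40.8%. The differences among the sham libraries were thus about the size of counting error, and those among the ASC libraries were larger. ASC 2 and ASC 3 were the high pair and ASC 1 and ASC 4 the low pair.

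**Figure D1:**
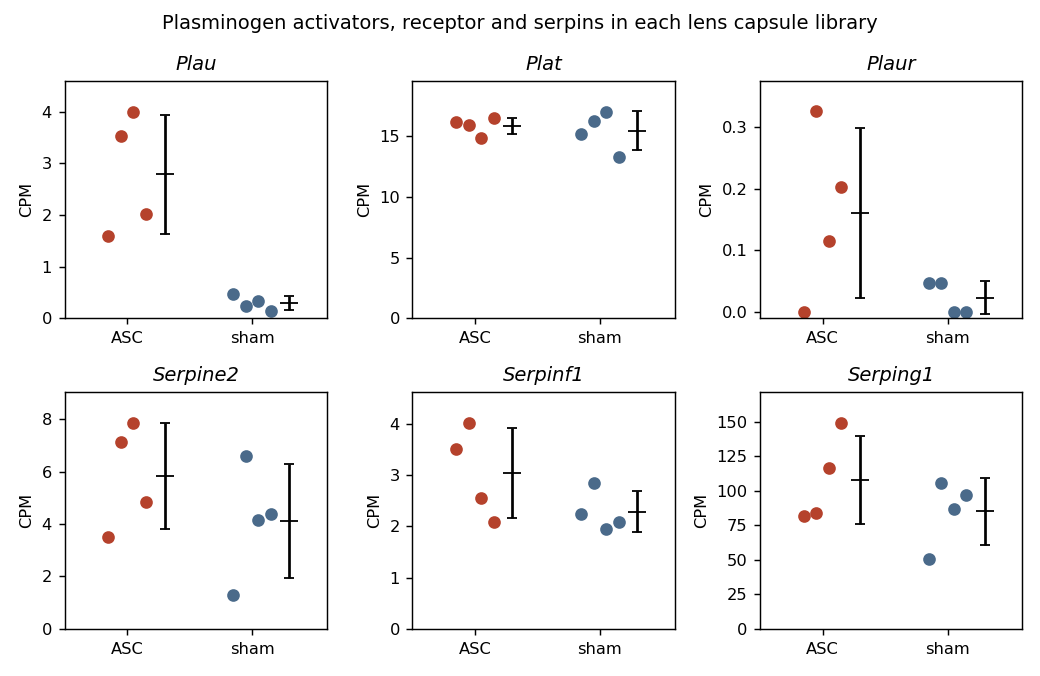
Each panel plots the CPM of 1 gene, with a point per library (ASC left, sham right, libraries 1 to 4 from left to right in a group) and the mean ± SD in black beside the points. The 4 Plau points of ASC, from 1.59 to 3.99 CPM, lie above all 4 sham points, while the groups overlap in the other 5 panels.

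Plat, the gene for tPA, had nearly the same level in every library. Its reads gave 16.1, 15.9, 14.9 and 16.5 CPM in ASC 1 to 4, against 15.2, 16.3, 17.0 and 13.3 CPM in sham 1 to 4. All 4 ASC libraries lay inside the range of the sham libraries. The mean was 15.8 ± 0.690 CPM in ASC and 15.4 ± 1.59 CPM in sham (SD, n = 4 each), and the log2 fold change was 0.03. Its 95% confidence interval ran from -0.21 to 0.27, or from 0.867-fold to 1.21-fold. The spread within ASC, a coefficient of variation of 4.36%, was below the 6.18% that counting error gives, so no variation between ASC libraries was detectable at this depth. In sham the coefficient of variation was 10.3%, larger than the 5.77% that counting error gives. The sign of the small log2 fold change turned under other scaling or without sham 4 (-0.10 with library totals alone, -0.03 without sham 4).

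The tPA transcript remained the more abundant of the activators per length. Levels of different genes were compared as CPM per kilobase of the gene's principal GENCODE transcript, 2.342 kilobases for Plau and 2.525 kilobases for Plat. Of the summed per-kilobase level of both activators, Plau made up 9.63%, 19.3%, 22.4% and 11.7% in ASC 1 to 4, against 3.21%, 1.53%, 2.10% and 1.19% in sham 1 to 4. The mean share was 15.8% ± 6.09 in ASC and 2.01% ± 0.887 in sham (SD, n = 4 each). The ASC and sham shares did not overlap, and the levels of Plat in ASC lay within those in sham. With the length of all annotated exons in place of the principal transcript, the share was larger, from 20.7% to 41.4% in ASC and from 2.86% to 7.50% in sham, and stayed below the share of Plat in all 8 libraries.

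Plaur, the gene for the urokinase receptor, was close to undetected in both groups. It had 0, 6, 2 and 3 reads in ASC 1 to 4, against 1, 1, 0 and 0 reads in sham 1 to 4. The groups overlapped, since ASC 1 held no read and sham 1 and sham 2 held 1 each. A count of 0 allows a level of up to 0.191 CPM in ASC 1, and up to 0.145 CPM in sham 3 and 0.223 CPM in sham 4 (3 reads, for counting error only). These limits are within the range of the other ASC libraries, 0.116 to 0.326 CPM. Summed over libraries, 11 reads fell in ASC and 2 in sham, too few for the test, and a difference in Plaur was not detectable at this depth.

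Serpine2 encodes protease nexin 1, a serpin that inhibits uPA, tPA, plasmin and thrombin. Its levels were 3.51, 7.11, 7.87 and 4.86 CPM in ASC 1 to 4, against 1.31, 6.58, 4.17 and 4.39 CPM in sham 1 to 4. ASC 2 and ASC 3 lay above all sham libraries, ASC 4 and ASC 1 lay within the sham range, and sham 1 was the lowest of the 8. The log2 fold change of Serpine2 was 0.51, with an interval of -0.46 to 1.48, and it was not called. Without sham 1 the log2 fold change was 0.21, and without sham 2 it was 0.83. The order of the ASC libraries, highest in ASC 3, then ASC 2, ASC 4 and ASC 1, was the order seen for Plau, while in sham the library with the most Plau, sham 1, had the least Serpine2.

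Serpinf1 encodes pigment epithelium-derived factor (PEDF), a serpin that has no protease inhibitor activity and is known for limiting vessel growth and supporting neurons in the eye. It had 3.51, 4.02, 2.55 and 2.09 CPM in ASC 1 to 4, against 2.25, 2.85, 1.94 and 2.08 CPM in sham 1 to 4. ASC 1 and ASC 2 lay above the sham range and the other two ASC libraries within it. The mean was 3.04 ± 0.879 CPM in ASC and 2.28 ± 0.400 CPM in sham (SD, n = 4 each), with a log2 fold change of 0.41 (interval -0.19 to 1.02) that was not called.

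Serping1 encodes C1 inhibitor, a serpin that blocks C1r and C1s of the classical complement pathway as well as plasma kallikrein and factor XII. It had the highest level of the 6 genes, 81.9, 83.8, 116 and 149 CPM in ASC 1 to 4, against 50.4, 106, 86.9 and 97.1 CPM in sham 1 to 4. ASC 3 and ASC 4 lay above the sham range, sham 1 lay below all ASC libraries, and the groups overlapped. The log2 fold change of Serping1 was 0.34, with an interval of -0.29 to 0.98, and it was not called. With 1076 to 2267 reads per library, counting error was a small part of its spread, 2.38% of the mean in ASC and 2.49% in sham. The coefficient of variation over libraries was 29.5% in ASC and 28.7% in sham.

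The order of the 6 genes per kilobase was the same in both groups. In ASC the mean levels were 61.0 CPM per kilobase for Serping1, 6.28 for Plat, 2.64 for Serpine2, 1.66 for Serpinf1, 1.19 for Plau and 0.107 for Plaur. In sham the mean levels were 48.1 CPM per kilobase for Serping1, 6.12 for Plat, 1.86 for Serpine2, 1.24 for Serpinf1, 0.127 for Plau and 0.0155 for Plaur. Serpine2 and Serpinf1 overlapped over libraries in both groups, so these neighbours did not differ beyond their spread. Serpinf1 and Plau overlapped in ASC, with 1.14 to 2.19 for Serpinf1 and 0.681 to 1.70 for Plau. In sham the Plau levels, 0.0636 to 0.200, lay below all Serpinf1 levels, 1.06 to 1.55. With the length of all annotated exons, Serpine2 fell behind Serpinf1 in both groups and behind Plau in ASC, at a mean of 0.704, 1.29 and 1.18 CPM per kilobase for Serpine2, Serpinf1 and Plau in ASC.

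**Figure D2:**
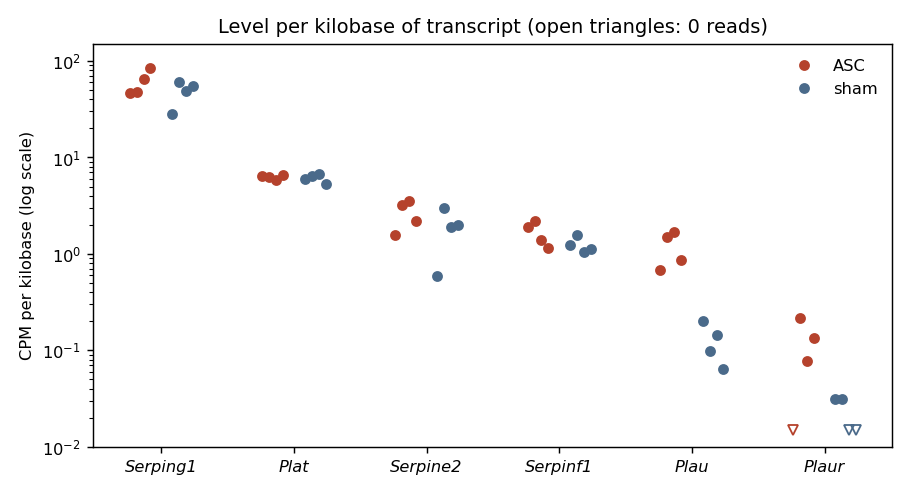
The vertical axis is the level in CPM per kilobase of principal transcript on a log scale, with a point per library, ASC left of sham for each gene, and open triangles at the bottom for libraries with 0 reads. The ASC points of Plau, 0.681 to 1.70, reach into the range of Serpinf1, whereas its sham points, 0.0636 to 0.200, lie below it, and Plaur is the lowest gene in both groups.

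Other genes of the plasminogen system were taken from a list of 58, made from textbook knowledge but with earlier results of these data known. The counts and signs of the list are therefore a description and not independent evidence. Of these, 32 had enough counts to be tested, and 0 passed the adjusted threshold in edgeR's test. An unadjusted p under 0.05 was reached by 8, DESeq2 called 2 and limma-voom 0. The sign was positive for 26 of the 32, and the median log2 fold change was 0.33. Over all 15857 genes tested, 8146 were positive, the median was 0.01, and 2335 had an unadjusted p under 0.05 by edgeR. DESeq2 called 593 genes and limma-voom 173. These values over all genes are also the background for the counts of the serpin, complement and PEDF lists below. The circulating parts of the system were nearly absent from the RNA. Plg, the gene for plasminogen, had 1 read in ASC and 0 in sham, and Serpinb2, plasminogen activator inhibitor 2, had 2 reads in ASC and 0 in sham. Serpinf2, antiplasmin, had 1, 5, 8 and 1 reads in ASC 1 to 4 and 0 in all sham libraries. Every ASC library thus held a Serpinf2 read and no sham library did, at counts too low for the test.

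Genes of the cell surface that bind or clear activators had values on both sides of 0. Lrp1, the endocytic receptor that takes up activator and inhibitor complexes, had 579 ± 62.9 CPM in ASC and 460 ± 49.3 CPM in sham (log2 fold change 0.33, interval 0.07 to 0.59, adjusted p = 0.231 by edgeR). Eno1, an enolase that also binds plasminogen at the cell surface, had 1359 ± 75.7 CPM in ASC and 1385 ± 195 CPM in sham (-0.03, interval -0.31 to 0.26). Lrp1 and Eno1 were the most abundant of the list by CPM. Of genes named here after their values were seen, Mrc2, an endocytic collagen receptor that associates with uPAR, had 13.6 ± 5.79 CPM in ASC and 6.93 ± 2.98 CPM in sham, with overlapping groups. Its log2 fold change was 0.98 (interval -0.09 to 2.05). Plgrkt, a plasminogen receptor, had a log2 fold change of -0.33 (interval -0.67 to 0.01). The tissue factor gene F3, which starts coagulation, had one of 0.97 (adjusted p = 0.293 by edgeR) with no overlap between groups, and Thbd, the thrombin receptor thrombomodulin, one of 0.98 (adjusted p = 0.254 by edgeR). Bdnf, whose protein precursor plasmin can cleave, had 31.4 ± 4.61 CPM in ASC and 17.8 ± 5.14 CPM in sham (0.81, adjusted p = 0.0835 by edgeR), with all ASC libraries above all sham libraries. DESeq2 called Bdnf (adjusted p = 0.0043). Over all tested genes, 3.39% had every ASC library above every sham library, as F3 and Bdnf had.

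**Figure D3:**
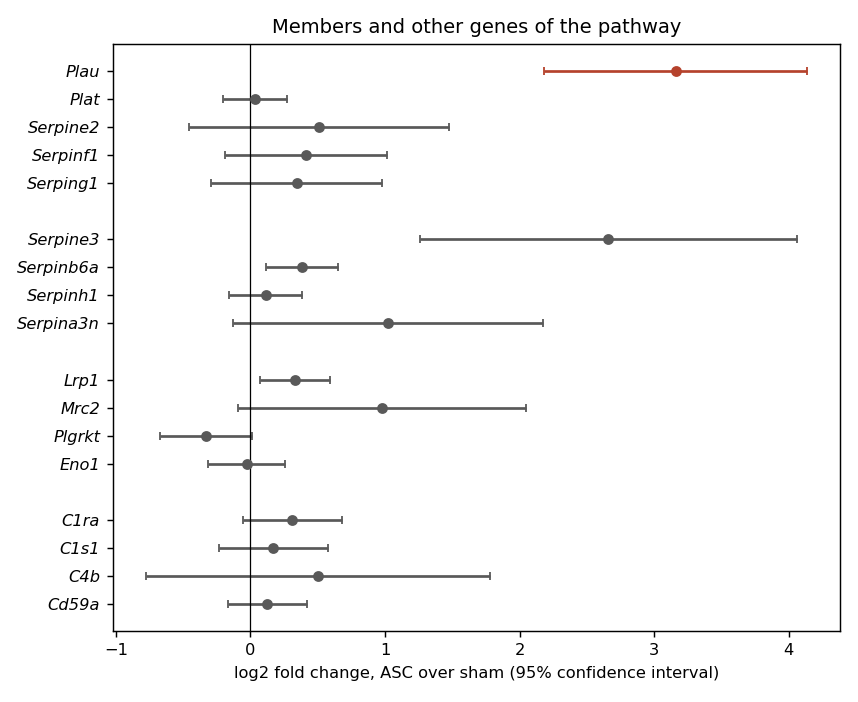
The horizontal axis is the log2 fold change, ASC over sham, with 95% confidence intervals from edgeR's fit over all genes, for the 5 tested members at the top, then other serpins, cell surface genes and complement genes. Red marks the gene past an adjusted p of 0.05, which is Plau at 3.16, and the interval of Plat, -0.21 to 0.27, is the narrowest of the 5 members.

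The serpin family holds 65 other genes in the table, of which 34 had no read in any library and 11 were tested. Of the 11, 0 passed in edgeR's test, 3 reached an unadjusted p under 0.05, DESeq2 called 2 and limma-voom 0, and the sign was positive for 10, at a median log2 fold change of 0.38. Serpinh1, the collagen chaperone HSP47 and the most abundant of them, had 216 ± 27.3 CPM in ASC and 200 ± 27.0 CPM in sham (0.12, interval -0.16 to 0.39). Serpina3n, a serpin that inhibits granzyme B and other proteases in the mouse, had 22.9, 54.3, 37.1 and 94.2 CPM in ASC, against 27.8, 17.0, 37.9 and 19.8 CPM in sham. The groups overlapped, ASC 4 was the highest library, and the log2 fold change was 1.02 (interval -0.13 to 2.17). Serpine3, named after its values were seen, had 25, 48, 33 and 104 reads in ASC 1 to 4 and 4, 6, 12 and 15 reads in sham 1 to 4. Its log2 fold change was 2.66 (SE 0.63, adjusted p = 0.0788 by edgeR). DESeq2 called it (adjusted p = 0.0011), and limma-voom did not (adjusted p = 0.088). Serpinb6a, also named after its values were seen, had 43.6 ± 6.85 CPM in ASC and 33.5 ± 3.43 CPM in sham (0.38, adjusted p = 0.174 by edgeR).

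Because Serping1 acts on complement, 26 genes of its targets and of the classical pathway and its regulators were read from the same fit. Of 16 tested, 1 rose and 0 fell, 4 reached an unadjusted p under 0.05, and DESeq2 and limma-voom each called 1. The count of called genes was 0 without sham 1, without sham 2 or without sham 4. The sign was positive for 12 of the 16, at a median log2 fold change of 0.29. C4b, a form of complement C4, had 49.9 ± 21.4 CPM in ASC and 35.3 ± 18.6 CPM in sham (0.50, interval -0.78 to 1.78). Cd59a, which blocks the membrane attack complex, had 55.6 ± 7.43 CPM in ASC and 51.0 ± 8.93 CPM in sham.

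The proteases that C1 inhibitor binds were measured at a lower level. C1ra had 8.66 ± 0.987 CPM in ASC and 6.95 ± 1.28 CPM in sham (0.31, interval -0.06 to 0.68), and C1s1 had 13.1 ± 2.73 CPM in ASC and 11.7 ± 2.26 CPM in sham (0.17, interval -0.23 to 0.57). C1s2 stood at -1.02 (adjusted p = 0.264 by edgeR) and C1rl at -0.52 (adjusted p = 0.292 by edgeR). All 4 ASC libraries of C1rl lay below all sham libraries, as held for 899 of the 15857 genes tested. C2, the complement protease that C1s cuts, stood at 1.54 (adjusted p = 0.207 by edgeR). These 5 genes were named after their values were seen.

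For Serpinf1, 7 genes of proteins that bind PEDF were read, and all 7 were tested. In edgeR's test 0 passed, 1 reached an unadjusted p under 0.05, and DESeq2 and limma-voom called 0. Their log2 fold changes lay between -0.21 and 0.24, with a median of 0.10. Rpsa, the laminin receptor and ribosomal protein, had 852 ± 126 CPM in ASC and 723 ± 137 CPM in sham, and Atp5b, a subunit of the mitochondrial ATP synthase, had 693 ± 44.2 CPM in ASC and 601 ± 23.4 CPM in sham. Pnpla2, a lipase that binds PEDF and was named after its values were seen, had 33.3 ± 2.94 CPM in ASC and 28.2 ± 2.11 CPM in sham (0.24, adjusted p = 0.29 by edgeR).

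The genes with library patterns most like each member were named by the smallest root mean square difference of mean-centred log2 CPM over the 8 libraries, which is a description with no test. For Plau they were Adamts1, a secreted metalloprotease (difference 0.51), Csrnp1, a nuclear protein (0.54), and Ppp1r15a, a subunit of a phosphatase that acts on the translation factor eIF2alpha (0.58). Their log2 fold changes in edgeR's fit were 1.98, 2.79 and 2.18, each smaller than that of Plau. Nothing is read from this, because the log2 CPM used for matching has a prior count of 2. That prior count shrinks differences of genes with few reads, such as Plau in sham. For Plat they were Ehbp1 (0.03), Pdzd8 (0.04) and Tead1 (0.04), whose log2 fold changes lay between -0.01 and 0.06. For Serpine2 they were Itm2a, Tbx22 and Rgs2 (0.16 to 0.17), for Serpinf1 Mal2, Mpp6 and Arhgap11a (0.10 to 0.16), and for Serping1 Tmem173, Ifi27 and Rhof (0.16 to 0.17). A member that varies little gives smaller differences, so these values are comparable within a member and not between members.

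Markers of other cells that a capsule preparation could carry were read beside the Plau values. The summed neutrophil list had 1.68 to 4.18 CPM in ASC and 0.521 to 1.54 CPM in sham, without overlap. Of its 9 genes 1 was tested, Ly6g and Cxcr2 had no read in any library, and S100a8 had 4 reads in ASC and 0 in sham. Ltf, named after its values were seen, gave the largest part of the sum in both groups (mean 1.55 CPM in ASC and 0.386 CPM in sham). By mean CPM, S100a9, Csf3r and Il1r2 were also higher in ASC. Mmp8 (1 read in ASC and 4 in sham) and Retnlg (1 and 2) were lower. The summed red cell list had 73.9 to 370 CPM in ASC and 40.1 to 62.8 CPM in sham, again without overlap. Of its 7 genes 5 were tested, 0 were called and Slc4a1 had no read in sham. The macrophage list overlapped, with 21.6 to 84.8 CPM in ASC and 12.3 to 55.0 CPM in sham, and 0 of its 12 tested genes were called. The vascular endothelium list, whose cells are a known source of tPA, had 18.4 to 30.5 CPM in ASC and 17.3 to 30.6 CPM in sham. The pigment list, of cells known to make PEDF, had 178 to 735 CPM in ASC and 47.0 to 256 CPM in sham. The groups overlapped, and 0 of its 9 tested genes were called. In ASC 1 to 4 the list had 178, 407, 537 and 735 CPM, where Serpinf1 had 3.51, 4.02, 2.55 and 2.09 CPM. The part of pigment cells in the Serpinf1 levels was not tested.

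The lens fibre list, of the cells that the capsule encloses, summed to 63676, 14304, 40304 and 43028 CPM in ASC 1 to 4, against 12555, 7434, 12523 and 21913 CPM in sham 1 to 4. All 12 of its genes were tested, and 2 rose, the crystallin genes Cryga (mean 39.5 CPM in ASC and 3.18 CPM in sham) and Cryge (mean 478 CPM in ASC and 43.4 CPM in sham). Lgsn, a lens glutamine synthetase-like protein, had a mean of 3151 CPM in ASC and 407 CPM in sham, and Dnase2b, the nuclease that degrades fibre cell DNA, 58.2 CPM in ASC and 7.52 CPM in sham, and neither was called. The list was highest in ASC 1, where Plau was lowest among the ASC libraries, and the groups overlapped. The corneal stroma and fibroblast list had 741 to 1298 CPM in ASC and 788 to 1054 CPM in sham. Most of that sum came from Aldh3a1 (mean 592 CPM in ASC and 483 CPM in sham) and Pdgfra (311 CPM and 337 CPM). Of its 8 tested genes 1 rose, the collagen gene Col1a1 (mean 4.51 CPM in ASC and 1.55 CPM in sham), and Kera had 4 reads in ASC and 0 in sham. Dcn, the proteoglycan decorin, had a mean of 13.8 CPM in ASC and 2.72 CPM in sham and was not called. By mean CPM, Pdgfra and Col6a1 (15.6 CPM in ASC and 19.0 CPM in sham) were lower in ASC. The other genes of the list were higher, Col1a2 by little (45.3 CPM in ASC and 43.6 CPM in sham). The photoreceptor list had 2145 to 4050 CPM in ASC and 1100 to 4549 CPM in sham, with 0 of its 10 tested genes called. The crystallins, Lgsn, Dnase2b, Aldh3a1, Pdgfra, Col1a1, Col1a2, Col6a1, Dcn and Mab21l1 were named after their values were seen.

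The corneal epithelium list summed to 105 to 145 CPM in ASC and 84.3 to 121 CPM in sham, of which Perp made up most. Of its 6 tested genes 3 rose in ASC, the keratins Krt5, Krt12 and Krt6a, named here after their values were seen. Over all tested genes 0.631% were called higher in ASC, which is also the background for the lens fibre and stromal lists above. Krt5 had 13.3, 4.02, 6.07 and 16.7 CPM in ASC 1 to 4, against 1.73, 0.654, 0.533 and 0.447 CPM in sham 1 to 4 (log2 fold change 3.52, adjusted p = 0.0387 by edgeR). Krt12, a keratin of the corneal epithelium, had 6.31, 2.93, 4.45 and 3.37 CPM in ASC 1 to 4, against 0.983, 0.514, 0.242 and 0 CPM in sham 1 to 4. In sham, Plau, Krt5 and Krt12 were all highest in sham 1 and lowest in sham 4. The Plau differences among sham libraries were about the size of counting error, so nothing is read from that order. In ASC, Krt5 was highest in ASC 4 and ASC 1, the libraries in which Plau was lowest. Krt12 and Krt6a had another order, highest in ASC 1, then in ASC 3, the library with the most Plau, and lowest in ASC 2. Krt5 lost its call in limma-voom and without ASC 1, ASC 3, ASC 4, sham 2, sham 3 or sham 4. Krt12 lost it without ASC 1, ASC 3, ASC 4, sham 2 or sham 3, and Krt6a without those or sham 4 (adjusted p up to 0.138 for these keratins). The part of lens fibre, corneal, stromal, pigment, red or white blood cells in the Plau difference was not tested.

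**Figure D4:**
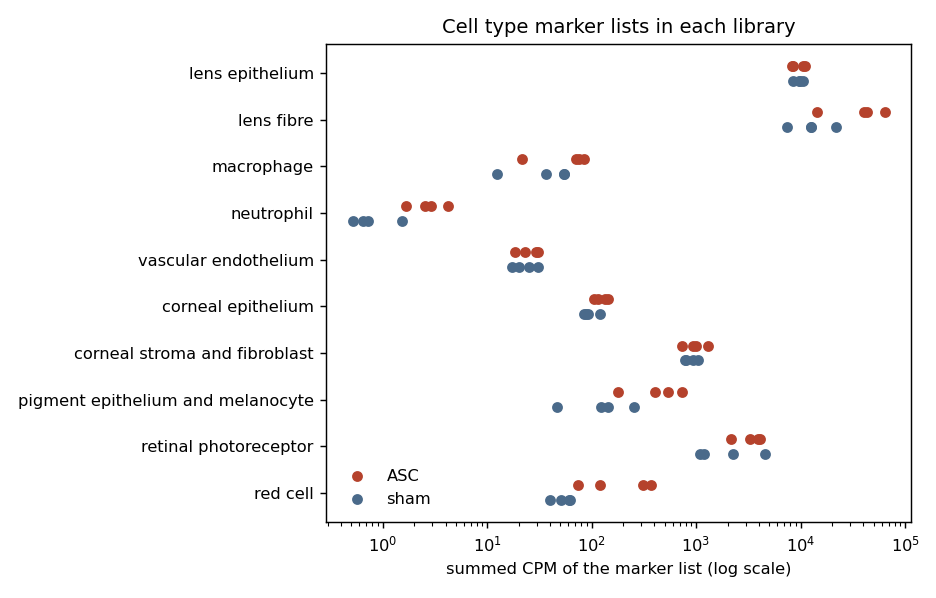
The horizontal axis is the summed CPM of a marker list on a log scale, with a point per library and, for each list, ASC above sham. The neutrophil list, at most 4.18 CPM in any library, and the red cell list do not overlap between groups, and the other 8 lists do.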

How the data were processed

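The authors deposited 1 table of whole-number read counts per gene, not normalized. Per the submitters' processing notes, it was made with CASAVA, fastp, HISAT2 2.0.5 and featureCounts 1.5.0-p3. The genome build, annotation, strand setting and multi-mapping rule were not given in the sources used here. All 8 count columns were used, and 54409 of 54532 identifiers matched a symbol. No gene of GENCODE mouse release 21 overlaps the 6 members.

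Groups are those of the labels. The test was edgeR 4.0.16 under R 4.3.3, with filterByExpr, TMM scaling and the robust quasi-likelihood F test, and with the group as its only term. Benjamini-Hochberg adjustment ran over 15857 genes, and calls needed an adjusted p under 0.05. The SE is the log2 fold change divided by the square root of F. CPM uses TMM-adjusted library sizes, log2 CPM a prior count of 2. Limits for 0 reads use 3 reads. Alternatives were DESeq2 1.42.0, limma-voom (limma 3.58.1), 3 scalings, 2 filters, no robust estimation, a replicate block, a threshold of 0.01 and each library left out. The procedure was tested on counts simulated with the dispersions estimated from these data. That test did not cover libraries that lie apart from their group. P-values measure spread between these libraries, and reads carry no molecular identifiers.

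The members and lists were chosen with earlier results of these data known. Named genes are the 6 members, a short set of other genes of the system (Plg, Serpinb2 and Serpinf2 among them), and from each list every called gene and the 2 with the highest mean CPM. Some results for genes under this rule are not reported here. For likeness, 3 genes per member with a mean log2 CPM of at least 1 were taken, leaving out pseudogenes and model names. Other genes were named after their values were seen.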

Additional observations from a re-analysis of the deposited data

Results flagged for a closer look

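Among 76 groups of 4 libraries, 1 for each named gene and condition, 5 had a library far from the other 3, where chance gives about 1 in 20. The sham groups of Plg, Serpinb2 and Serpinf2 had 0 reads in every library and could not be flagged. Of the 5 flags, 2 rest on 1 and 2 reads: Plg reached 0.0543 CPM and Serpinb2 0.109 CPM in ASC 2, with 0 reads in the other ASC libraries. A group with reads in 1 library only is always flagged, so the rate of chance does not apply to these 2. C1s1 had 9.07 CPM in ASC 2, against 14.2 to 14.9 CPM in the other ASC libraries. Krt5 had 1.73 CPM in sham 1, against 0.447 to 0.654 CPM in the other sham libraries, and Krt6a had 0.562 CPM in sham 1, against 0.0744 to 0.140 CPM. No library of the 6 members stood out in this way in either group.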

How the results depend on the processing

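Plau was the 1 member called under all 18 alternatives, with a log2 fold change of 2.94 to 3.45 (adjusted p 9.0e-10 to 0.0371 over the 17 refits). Serpine2, Serpinf1 and Serping1 kept a positive sign and no call in all 17. Plat turned to -0.10 (-0.0967) with library totals alone, which moved the median of all genes to -0.12 from 0.01, and ran from -0.0295 to 0.0818 as each library was left out. The number of genes called over the whole table was 593 with DESeq2, 712 with no low-count filter, 44 at a threshold of 0.01, and 56 to 228 as each library was left out. Of the other plasminogen genes, 2 were called with DESeq2, 4 with no low-count filter and 0 to 1 with a library left out (Bdnf, without sham 2). Of other serpins, 2 were called with DESeq2 and 2 with no low-count filter. Of the complement genes, 2 were called with no low-count filter, 0 at a threshold of 0.01, and 0 to 1 with a library left out. With the replicate block 169 genes were called, 2 of them other plasminogen genes and 2 other serpins. Nothing in the labels pairs the animals. Deviations of same-numbered libraries correlated at 0.22, 0.06, 0.21 and -0.09, and so few values can neither show nor exclude a pairing. Not every library correlated best with its own number, since ASC 1 did so with sham 4 (0.30). The cause of these changes was not tested, and leaving out a library also leaves fewer samples. Depth limits Plau in sham (2 to 10 reads) and Plaur (0 to 6 reads).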
